A study of Mus musculus with 12 samples.

Results

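The genes described here encode the initiation factors (eIFs) and elongation factors (eEFs) of cytosolic translation, with the binding proteins, kinase and methyltransferases that carry the same gene names. They were chosen by name, as every gene of the FPKM table that starts with Eif1 to Eif6 or with Eef1 or Eef2, without the eIF2 kinases (Eif2ak) and without pseudogenes marked -ps. Of 62 such genes, 60 had an FPKM (fragments scaled to transcript length and library size) of at least 1 in at least 3 of 12 libraries, as did 12994 of the 29838 genes of the table. The lowest single value of any of the 60 genes was 2.02, for Eif5a2 in the first Ortho library, so each of them passed the limit in all 12 libraries. The genes outside the limit were Eef1akmt3, with no value above 0.0713, and Eif4ebp3, which reached 4.92 in the second Pro and 2.57 in the first Poly library and stayed under 1 in the others.

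The RNA came from the bone marrow of wild type (WT) C57BL/6 male mice of 8 weeks, and the cells were erythroblasts sorted at 4 stages of terminal differentiation. These were proerythroblasts (Pro), sorted as CD44 high and Ter119 low, and basophilic (Baso), polychromatic (Poly) and orthochromatic (Ortho) erythroblasts, sorted from Ter119+ cells by CD44 and by size, all negative for CD45, CD11b and GR1. Each stage had 3 libraries, and no treatment or mutation was involved. The labels of Ortho libraries 2 and 3 name only an erythroblast as the cell type, so these were taken as Ortho from their titles. The labels do not say whether libraries of a stage came from separate animals, so the p-values measure the spread between these libraries.

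Translation of most mRNAs starts when eIF2, loaded with GTP and the initiator tRNA, joins the small ribosomal subunit with eIF1, eIF1A, eIF3 and eIF5, while the eIF4 factors bind the cap and unwind the mRNA. The complex scans to a start codon, eIF5 triggers hydrolysis of the GTP, eIF5B brings in the large subunit, and eIF2B recharges eIF2 for another round. Elongation then needs eEF1A to deliver aminoacyl-tRNA, eEF1B to recharge eEF1A, and eEF2 to move the ribosome. Maturing erythroblasts make hemoglobin while they shrink, condense the nucleus and lose organelles, and the reticulocyte that follows goes on translating stored mRNA.

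Of the marker genes, the erythroid genes Klf1, Alas2, Epor, Tfrc and Slc4a1, all measured above 1 in each stage, summed to an FPKM of 1424 to 1934 in the Pro libraries and 4117 to 4694 in the later ones. These genes did not move alike. From Pro to Ortho the mean FPKM went up for Alas2 (336 to 2221) and Slc4a1 (582 to 1672). It went down for Klf1 (320 to 69.3) and Epor (149 to 46.5), and was 333 and 336 for Tfrc. Of the early progenitor genes Kit, Gata2, Cd34 and Myb, only Kit had its highest mean in Pro, and the sum of the 4 was 86.5 to 102 in Pro and 105 to 159 in the later libraries. Of the FPKM sum, hemoglobin genes held 8.45% ± 1.95 (SD, n = 3) in Pro, and 35.1% ± 1.79, 36.6% ± 1.56 and 49.6% ± 2.74 in the Baso, Poly and Ortho libraries. Neutrophil markers were also present despite the gate, with all 7 of the list above 1 in each stage and a sum of 6643 to 8405 in Pro, 11556 to 13612 in Baso, 14908 to 17693 in Poly and 13226 to 16469 in Ortho. The 5 B cell markers summed to 124 to 197 in Pro and 392 to 407 in Ortho, and the 5 macrophage markers to 28.9 to 34.8 and 61.2 to 72.8. The 5 megakaryocyte markers summed to 66.5 to 121 in Pro and 35.8 to 45.2 in Ortho, and of the T and NK cell markers Cd3e and Cd3g were at or near 0 in every stage while Nkg7 was measured. The part of these other cells in the results below was not tested. The depth behind the FPKM values is unknown, and replicates correlated at 0.973 to 0.984 within stages across genes.

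Transcripts of all 62 translation factor genes matched by name, Eef1akmt3 and Eif4ebp3 included, held 2.14% ± 0.11 (SD, n = 3) of all FPKM in Pro. In Baso, Poly and Ortho they held 1.035% ± 0.05, 0.930% ± 0.03 and 0.788% ± 0.02. With hemoglobin genes left out of the sum, the shares were 2.34% ± 0.08, 1.60% ± 0.07, 1.47% ± 0.05 and 1.57% ± 0.04 in the same order. Pro libraries were thus above all later libraries on either sum, while Ortho libraries were below Poly libraries only with hemoglobin in the sum. The mean FPKM was highest in Pro for 54 of the 60 genes. It was highest in Baso for Eef2k, Eif1 and Eif5a2, in Poly for Eif4g3, and in Ortho for Eif4e3 and Eif5. As deposited, Eef2k and Eif1 in Baso (adjusted p = 0.150 and 0.115, limma) and Eif4g3 in Poly (adjusted p = 0.939, limma) did not differ from Pro past 0.05. FPKM is a share of a bulk library, so fewer cells of a type and less RNA of a gene per cell cannot be told apart.

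The question of the comparisons was how the transcripts of the translation machinery change as erythroblasts mature. In Baso compared with Pro, 52 of the 60 genes were lower and 2 higher at an adjusted p under 0.05, against 42.1% lower and 14.9% higher among all 12994 genes tested (limma on log2(FPKM + 1)). The genes that were higher were Eif4e3 and Eif5a2. A fall of at least 2-fold on this scale was found for 16 of the 60, against 8.54% of all genes, and a rise of that size for 0 genes, against 1.82%. In Poly compared with Pro, 51 were lower and 2 higher (Eif4e3 and Eif5), against 42.7% and 23.3% of all genes. In Ortho compared with Pro, 55 were lower and 2 higher (Eif4e3 and Eif5 again), against 53.2% and 22.7%. Fold changes below that name no pair of stages compare Ortho with Pro. The fall reached 2-fold for 40 of the 60, against 23.8% of all genes, and the rise for 1, Eif5, against 6.33%. All 3 Ortho libraries lay below all 3 Pro libraries for 56 of the genes, against 53.6% of all genes, and above them for 2, against 23.2%.

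Compared with Pro, the median log2 fold change of the 60 genes was -0.83 for Baso, -0.95 for Poly and -1.17 for Ortho, where all genes tested had medians of -0.23, -0.20 and -0.42. Below those medians lay 53, 52 and 53 of the 60. The later steps were smaller. From Baso to Poly the medians were -0.16 for the factor genes and 0.03 for all genes, and from Poly to Ortho they were -0.21 and -0.08.

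**Figure D1:**
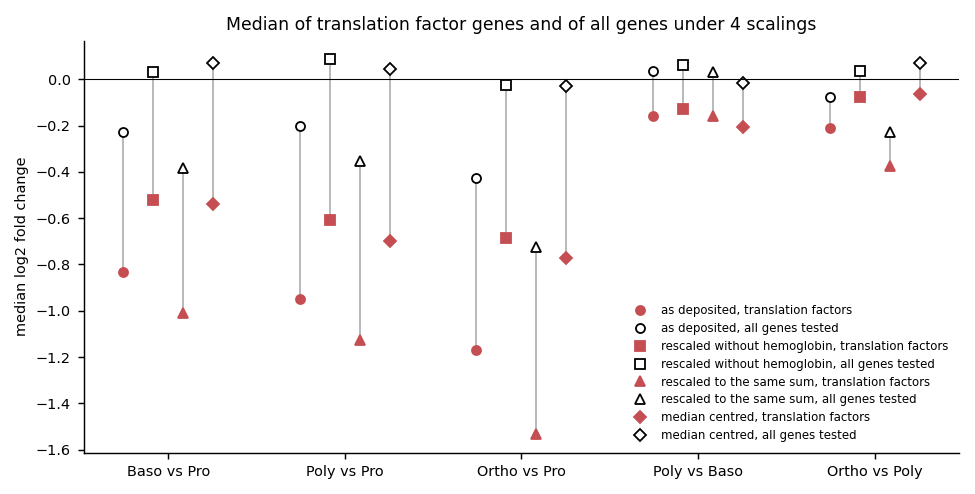
Median log2 fold change (vertical axis, log2(FPKM + 1) scale) of the 60 translation factor genes (red) and of all 12994 genes tested (open symbols) in 5 stage comparisons, as deposited and under 3 other scalings of the libraries. The red symbol lies below the open symbol of the same shape in each comparison, and the distance is widest in the comparisons with Pro.

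The scaling of the libraries moved all genes together. With hemoglobin genes left out of the scaling the median of all genes in Ortho compared with Pro went from -0.42 to -0.03 and that of the factor genes to -0.68, and with each library set to the same sum they were -0.72 and -1.53. After centring each library on its median they were -0.03 and -0.77. The calls moved with it. With hemoglobin genes left out, 46 of the 60 were lower and 3 higher in Ortho, against 34.8% and 34.4% of all genes, with the same sum 58 and 2, against 63.4% and 14.7%, and with median centring 49 and 2, against 35.5% and 34.5%. In Baso compared with Pro the same scalings gave 46 lower and 5 higher, against 24.3% and 27.1%, then 54 and 1, against 51.3% and 8.89%, and 46 and 5, against 23.5% and 30.5%. Under all 4 scalings, as deposited included, 46 of the 60 genes were lower in Baso than in Pro and 46 were lower in Ortho than in Pro, each past the threshold. The 6 falls in Baso that missed it without hemoglobin genes and with median centring were those of Eef1akmt4, Eif1ad, Eif2s2, Eif4enif1, Eif4g2 and Eif4g3. The 9 falls in Ortho that missed it without hemoglobin genes were those of Eef1akmt2, Eef1d, Eef2k, Eef2kmt, Eif1, Eif1a, Eif2s3y, Eif4ebp2 and Eif4g2, and of these Eef1d, Eif1 and Eif4g2 passed with median centring. Eif5a2 in Baso, and Eif5 and Eif4e3 in Ortho, were higher under all 4.

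Between Baso and Poly, 8 of the 60 genes fell and 0 rose, against 5.77% lower and 6.58% higher among all genes (limma). At an unadjusted p under 0.05 there were 22 lower and 4 higher, against 12.4% and 16.9% of all genes. The count of falls rested on single libraries. It was 13 without Pro library 1, 2 without Baso library 2 or Poly library 1, 1 without Baso library 3 or Poly library 2, and 0 without Poly library 3. When the shared replicate numbers of Baso, Poly and Ortho were taken as a block, 20 fell and 3 rose (Eif1a, Eif4e3 and Eif4g2), against 9.44% and 12.6% of all genes. Between Poly and Ortho, 20 (33.3%) fell and 2 rose (Eif4e3 and Eif5), against 21.7% and 4.43% of all genes, and with the same replicate block 27 fell and 2 rose, against 24.5% and 6.31%. With each library set to the same sum, 39 fell and 1 rose, against 32.3% and 2.69%, and with hemoglobin genes left out 13 fell and 3 rose, against 16.2% and 9.57%. Under all 4 scalings, 5 of the 8 falls between Baso and Poly and 12 of the 20 between Poly and Ortho were past the threshold. The others were Eif3a, Eif3c and Eif3m at the first of these steps, and Eif2d, Eif2s1, Eif2s3x, Eif3a, Eif3d, Eif3j2, Eif4a1 and Eif4g1 at the second.

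**Figure D2:**
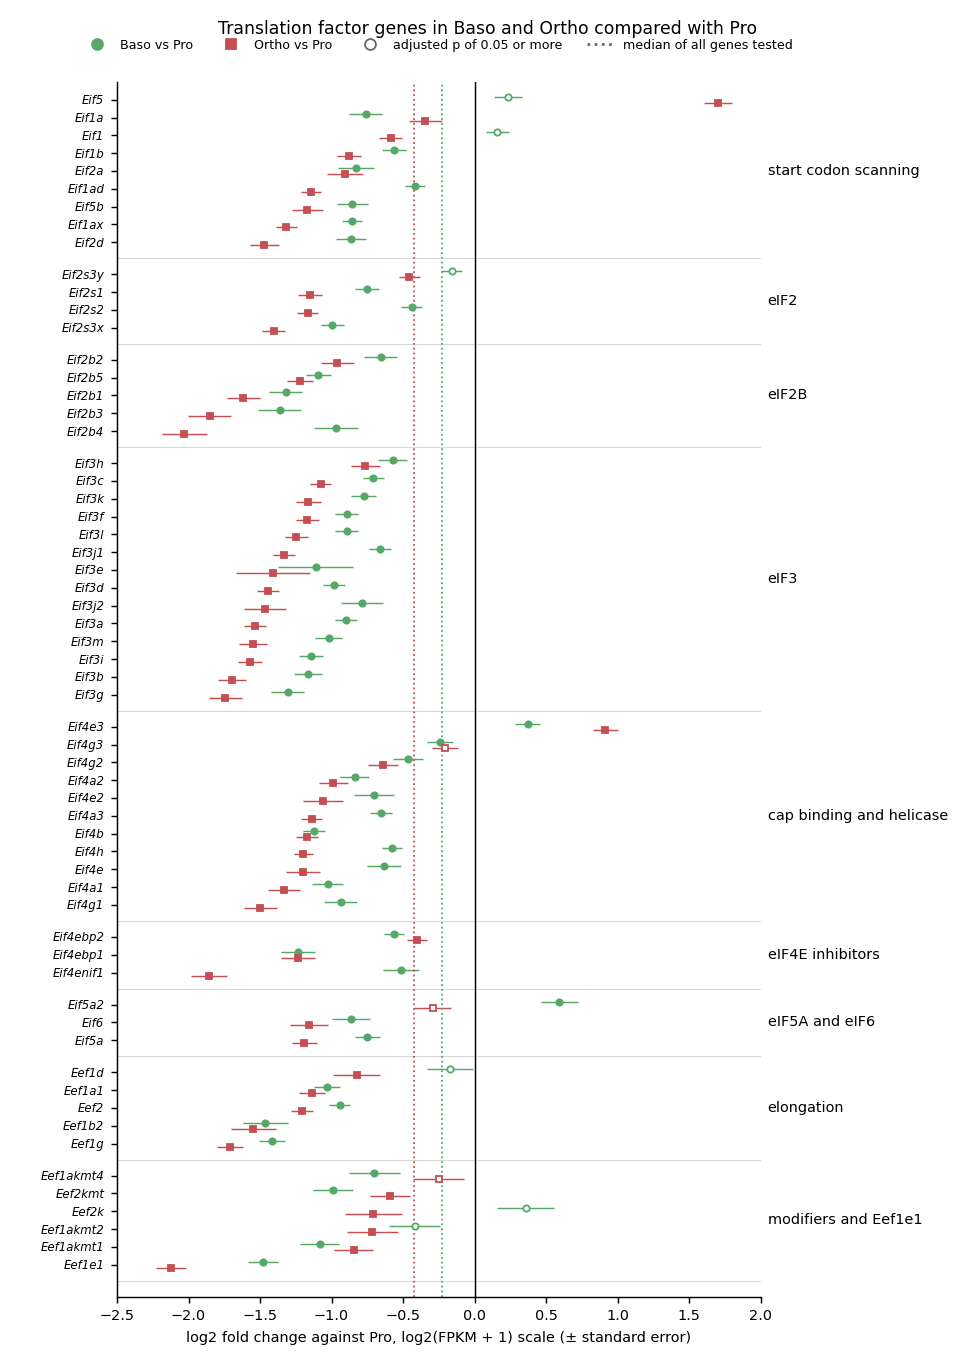
Log2 fold change against Pro (horizontal axis, log2(FPKM + 1) scale, with standard error) of each of the 60 genes, grouped by role, for Baso (circles) and Ortho (squares). Filled symbols passed an adjusted p under 0.05, and dotted lines give the medians of all genes tested, -0.23 for Baso and -0.42 for Ortho. Most symbols lie left of these lines, and Eif5 at 1.70 and Eif4e3 at 0.92 in Ortho lie right of 0.

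Among the 9 genes grouped under start codon scanning and subunit joining, Eif1ad, Eif2a and Eif2d included, 7 fell in Baso compared with Pro. The share of all genes that fell there was 42.1%. In Ortho compared with Pro 8 fell and 1 rose, against 53.2% and 22.7% of all genes. Eif5, which encodes the GTPase activator of eIF2, was the gene that rose. It lies at chr12:111538016-111546752 on the plus strand of mm10 and its principal transcript in GENCODE M21 has 12 exons. Eif5 had an FPKM of 137, 157 and 142 in Pro, 192, 174 and 149 in Baso, 182, 199.9 and 175 in Poly, and 498, 464 and 459.7 in Ortho. All 3 Ortho libraries lay far above the other 9, and Pro and Baso overlapped. Eif5 was 3.27-fold higher in Ortho than in Pro by mean FPKM (log2 fold change 1.70, standard error 0.10, adjusted p = 4.49e-08) and 2.55-fold higher than in Poly (log2 fold change 1.35, standard error 0.10, adjusted p = 9.76e-07). The rise in Poly compared with Pro was small (log2 fold change 0.35, adjusted p = 0.00766) and missed the threshold with each library set to the same sum (0.17). The sums of B cell and macrophage markers were also highest in Ortho, and their part in the rise of Eif5 was not tested. The annotation places the small nucleolar RNA Snora28 within Eif5 exons on the same strand, and the table listed Snora28 below an FPKM of 1 in every library.

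Eif1, whose protein keeps the scanning complex open until a start codon is met and opposes eIF5, did not follow Eif5. Eif1 had an FPKM of 251, 269.8 and 267 in Pro, 309, 279.7 and 292 in Baso, 284, 248 and 243 in Poly, and 189, 170.5 and 165 in Ortho. The Ortho libraries were the lowest, the Baso libraries lay above those of Pro, and Poly overlapped both. Eif1 fell in Ortho compared with Poly (log2 fold change -0.56, standard error 0.08, adjusted p = 0.000251) under each of the 4 scalings. Its fall against Pro (-0.59) shrank to -0.10 with hemoglobin genes left out and then missed the threshold. Its log2 difference between Baso and Pro of 0.16 (adjusted p = 0.115) became a rise past the threshold when hemoglobin genes were left out (0.48) and had the opposite sign with the same sum (-0.02).

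A ratio of the FPKM of a pair of genes within a library does not depend on the scaling of that library. Of 20 such ratios listed, 19 could be compared between stages, all for pairs of paralogues, partners or factors of related role. They were compared by exact permutation of the 12 libraries over 4 groups of 3 (15400 ways), on log2 of (FPKM + 1). With the added 1 the tested values depend slightly on the scaling, most for scarce genes, while the ranges printed are of FPKM alone. The smallest p this test can give is 6.49e-05. Of the 19 pairs, 17 had an adjusted p under 0.05 (Benjamini-Hochberg over the 19). The Eif1/Eif5 ratio of FPKM was 1.72 to 1.89 in Pro, 1.60 to 1.96 in Baso, 1.24 to 1.56 in Poly, and 0.359 to 0.380 in Ortho (exact p = 0.000584, adjusted p = 0.00101). Eif1 was the more abundant transcript in 9 of 9 libraries up to Poly, and Eif5 in 3 of 3 Ortho libraries.

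The start codons of these 2 genes are shown because the factors they encode act on start codon choice, and the most abundant elongation factors are shown beside them. Each line gives 9 bases before the start codon, the start codon in capitals and 6 bases after it, read from the principal GENCODE M21 transcript (mm10), with the position of the start codon.
Eif1 chr11:100320130-100320132 (plus strand): tcgtatcgtATGtccgct
Eif1b chr9:120492811-120492813 (plus strand): tagtgtcgcATGtccact
Eif5 chr12:111539616-111539618 (plus strand): taagccaaaATGtctgtc
Eef1a1 chr9:78480652-78480654 (minus strand): aaagcaaaaATGggaaag
Eef2 chr10:81176727-81176729 (plus strand): tccgccaccATGgtgaac
Counting the A of the start codon as base 1, Eif1 and Eif1b lack a purine at base -3, where efficient contexts hold a purine, and the other 3 have it. Of 53 factor genes with a usable transcript, 47 (88.7%) had a purine at that base, close to the 87.9% of 8125 genes tested. The 6 without it were Eef1akmt1, Eif1, Eif1b, Eif3b, Eif4h and Eif6. At least 1 ATG lay in the 5′ leader of 14 of the 53 (26.4%), against 51.5% of the genes tested, and the leaders were shorter, with a median of 97 bases against 179. Eif5 had 5 such ATGs in a leader of 626 bases and Eif1 had 1 in 245 bases. These features describe the sequences and were not measured here as translation.

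The eIF1A paralogues Eif1a and Eif1ax differed. Eif1a had an FPKM of 12.2, 14.1 and 17.3 in Pro, 8.10, 8.05 and 8.13 in Baso, 11.4, 10.5 and 9.74 in Poly, and 12.03, 11.1 and 10.4 in Ortho. Eif1ax had an FPKM of 27.7, 25.8 and 27.6 in Pro, 14.2, 14.1 and 15.1 in Baso, 14.4, 13.95 and 13.03 in Poly, and 9.73, 10.3 and 10.7 in Ortho. Both were highest in Pro, Eif1a was lowest in Baso, and Eif1ax was lowest in Ortho. Eif1ax fell 2.63-fold in Ortho compared with Pro (log2 fold change -1.32, standard error 0.07, adjusted p = 3.21e-08). Eif1a passed the threshold as deposited (-0.34), but the sign turned under other scalings, to 0.11 without hemoglobin genes and 0.05 with median centring, both not past the threshold. It also missed the threshold without Pro library 3 (-0.22) or Ortho library 3 (-0.30). The ratio of Eif1a to Eif1ax was 0.442 to 0.626 in Pro, 0.538 to 0.570 in Baso, 0.748 to 0.788 in Poly, and 0.966 to 1.24 in Ortho (exact p = 0.000455, adjusted p = 0.00096). The transcripts are alike, and how fragments shared by close copies were counted is not given in the sources used here, so the level of each is uncertain.

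Eif1b, a close copy of Eif1, had an FPKM of 48.3, 50.8 and 59.2 in Pro, 32.9, 37.6 and 35.7 in Baso, 33.1, 32.6 and 32.97 in Poly, and 27.02, 28.04 and 29.6 in Ortho. Pro was highest and Ortho lowest without overlap, and Baso and Poly lay between them. The Eif1/Eif1b ratio was highest in Baso and Poly, at 4.52 to 5.31 in Pro, 7.44 to 9.39 in Baso, 7.37 to 8.59 in Poly, and 5.57 to 6.999 in Ortho (exact p = 0.000714, adjusted p = 0.00113). Eif1ad, an eIF1A-like protein of the nucleus, had an FPKM of 31.4, 34.3 and 31.6 in Pro, 22.5, 25.6 and 24.1 in Baso, 24.3, 24.3 and 25.6 in Poly, and 13.3, 14.3 and 14.8 in Ortho. Baso and Poly libraries were alike and the Ortho libraries lay well below them (Ortho against Poly log2 fold change -0.76, standard error 0.07, adjusted p = 9.01e-06). The other genes of the group, Eif2a, Eif2d and Eif5b, fell by 0.91 to 1.47 on the log2 scale in Ortho compared with Pro.

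eIF2 carries the initiator tRNA, and its alpha subunit is the target of the stress kinases. All 4 of its genes fell in Ortho and 3 of them in Baso, compared with Pro, against 53.2% and 42.1% of all genes. Of these falls, those of Eif2s3y in Ortho and Eif2s2 in Baso depended on the scaling. Eif2s1, the alpha subunit, had an FPKM of 40.5, 39.4 and 47.98 in Pro, 24.5, 24.2 and 25.7 in Baso, 24.1, 23.2 and 22.1 in Poly, and 19.2, 19.2 and 17.4 in Ortho. The stages formed steps, with Pro highest and Ortho lowest, and Baso lay just above Poly (Ortho against Pro log2 fold change -1.15, standard error 0.08, adjusted p = 2.29e-07). Eif2s2, the beta subunit, had an FPKM of 70.2, 70.8 and 82.02 in Pro, 56.5, 52.4 and 54.6 in Baso, 43.3, 43.4 and 44.9 in Poly, and 32.5, 31.2 and 33.7 in Ortho. No libraries of different stages overlapped, and each step down passed the test on the values as deposited (Poly against Baso -0.31, Ortho against Poly -0.42). The step from Baso to Poly did not pass without Baso library 1 or 3 or without any of the Poly libraries (-0.28 to -0.32). The first step, from Pro to Baso (-0.44), shrank to -0.13 (adjusted p = 0.138) with hemoglobin genes left out and to -0.14 (adjusted p = 0.111) with median centring, and then missed the threshold.

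The gamma subunit comes from an X-linked and a Y-linked gene in the mouse. Eif2s3x had an FPKM of 53.8, 51.96 and 58.2 in Pro, 24.5, 28.4 and 28.1 in Baso, 26.8, 24.6 and 26.8 in Poly, and 19.3, 19.2 and 21.5 in Ortho. Eif2s3y had an FPKM of 37.8, 38.9 and 36.7 in Pro, 33.7, 33.3 and 34.1 in Baso, 31.2, 27.6 and 26.8 in Poly, and 28.2, 25.5 and 28.2 in Ortho. The X copy was higher than the Y copy in the 3 Pro libraries and lower in the Baso and Ortho libraries, and no X value of a later stage overlapped those of Pro. Eif2s3x fell 2.73-fold in Ortho (log2 fold change -1.40, standard error 0.08, adjusted p = 4.79e-08). The change of Eif2s3y (-0.46, adjusted p = 0.000135) depended on the scaling, at 0.02 with hemoglobin genes left out, -0.81 with all libraries set to the same sum and -0.06 with median centring, of which only the same sum was past the threshold. The X/Y ratio was 1.34 to 1.59 in Pro, 0.725 to 0.852 in Baso, 0.859 to 1.0004 in Poly, and 0.686 to 0.763 in Ortho (exact p = 0.000455, adjusted p = 0.00096). The coding sequences of the pair are close copies, so some fragments could have been assigned to either.

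The 5 genes of eIF2B, the exchange factor that recharges eIF2, fell together in Baso and in Ortho compared with Pro. Of all genes, 42.1% and 53.2% fell. The eIF2B genes had a median log2 fold change of -1.62 in Ortho, and 4 of the 5 fell at least 2-fold, against 23.8% of all genes. Eif2b4, the delta subunit at chr5:31187558-31193430, had an FPKM of 42.6, 29.7 and 30.98 in Pro, 14.8, 17.8 and 18.2 in Baso, 12.4, 11.7 and 12.6 in Poly, and 7.52, 9.38 and 6.12 in Ortho. All stages were separated and the order followed maturation, with a fall of 4.48-fold in Ortho (log2 fold change -2.03, standard error 0.16, adjusted p = 3.74e-07). Eif2b4 was also the only gene of the 5 to fall from Poly to Ortho (-0.63, adjusted p = 0.0103). Its exons overlap those of Snx17 on the other strand, and fragments of the overlap could belong to either unless strand was used.

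Eif2b3, the gamma subunit, had an FPKM of 14.5, 17.6 and 15.3 in Pro, 5.85, 5.83 and 4.93 in Baso, 5.69, 4.07 and 3.58 in Poly, and 3.71, 4.27 and 3.04 in Ortho. Pro libraries were separate, and Poly overlapped both Baso and Ortho (Poly against Pro log2 fold change -1.64, standard error 0.15, adjusted p = 3.15e-06). Eif2b5, the catalytic epsilon subunit, had an FPKM of 26.4, 21.2 and 24.8 in Pro, 9.92, 10.9 and 11.5 in Baso, 9.67, 10.6 and 9.76 in Poly, and 9.60, 9.99 and 9.59 in Ortho. It fell in Baso (-1.09), and the later libraries lay close together. The regulatory subunits Eif2b1 (-1.62) and Eif2b2 (-0.96) fell in Ortho as well. The ratio of Eif2s1 to Eif2b5 was 1.54 to 1.93 in Pro, 2.22 to 2.47 in Baso, 2.20 to 2.49 in Poly, and 1.81 to 1.996 in Ortho (exact p = 0.00682, adjusted p = 0.00864), so the substrate subunit was higher relative to the exchange factor in Baso and Poly than in Pro, and the Ortho ratios overlapped those of Pro.

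All 14 genes of eIF3, the scaffold that holds the small subunit and the mRNA, fell in Baso and in Ortho compared with Pro. Of all genes, 42.1% fell in Baso and 53.2% in Ortho. In Ortho 13 of the 14 fell at least 2-fold, against 23.8% of all genes. The log2 fold changes in Ortho ran from -1.74 for Eif3g to -0.76 for Eif3h, with a median of -1.43. Between Baso and Poly, Eif3a, Eif3c, Eif3f, Eif3i and Eif3m fell, by 0.28 to 0.36 on the log2 scale, where 5.77% of all genes fell. These 5 were most of the 8 factor genes that fell at that step. The falls of Eif3a, Eif3c and Eif3m depended on the scaling. With Poly library 3 left out, the count of factor genes that fell at this step was 0.

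Eif3g, an RNA-binding subunit, had an FPKM of 147, 113 and 128 in Pro, 42.99, 58.04 and 54.5 in Baso, 43.6, 46.9 and 44.2 in Poly, and 36.9, 38.6 and 37.7 in Ortho. The Pro libraries stood apart, and the Ortho libraries were below all others (log2 fold change -1.74, standard error 0.12, adjusted p = 1.14e-07). Eif3m had an FPKM of 172, 132 and 148 in Pro, 75.6, 73.4 and 71.5 in Baso, 59.1, 60.5 and 51.4 in Poly, and 49.1, 50.3 and 52.3 in Ortho. Each stage was below the one before it, except that Ortho library 3 lay above Poly library 3. Eif3c, a core subunit, had an FPKM of 115, 101 and 116 in Pro, 63.5, 67.3 and 71.3 in Baso, 56.9, 55.1 and 54.04 in Poly, and 52.4, 49.6 and 53.8 in Ortho. Eif3c libraries of successive stages did not overlap.

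Eif3f had an FPKM of 175, 164 and 174 in Pro, 81.5, 101 and 92.9 in Baso, 71.4, 77.1 and 74.3 in Poly, and 74.4, 77.4 and 74.7 in Ortho. Baso lay between Pro and the later stages, and Poly and Ortho overlapped. Eif3d, a subunit that can bind the cap of some mRNAs, had an FPKM of 110.2, 112 and 128 in Pro, 54.1, 58.9 and 62.3 in Baso, 49.4, 47.8 and 50.9 in Poly, and 41.9, 42.8 and 41.7 in Ortho. Its libraries did not overlap between stages either, and the small step from Poly to Ortho passed the test (-0.22, adjusted p = 0.0474), but not with any Poly or Ortho library left out or with hemoglobin genes left out (-0.08). Eif3e was the least even of the subunits, with Baso libraries from 44.4 to 79.1 and a standard error of 0.26 on its log2 fold change in Ortho. The near-identical copies Eif3j1 and Eif3j2 did not differ in ratio past the threshold, at 1.74 to 2.35 in Pro, 2.06 to 2.61 in Baso, 2.32 to 2.50 in Poly, and 2.27 to 2.55 in Ortho (exact p = 0.531, adjusted p = 0.531), and the share of fragments between them is uncertain.

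RefSeq promoters (GRCm38.p6, from 250 bases before to 50 after the start) were found for 47 of the 60 genes. ETS letters (CCGGAAG on either strand) occurred in 16 of the 47 (34.0%), against 21.7% of the 8900 tested genes with a promoter and 9.93% of all 27025. These letters are part of the sites of ETS family factors, many of which lie in promoters of housekeeping genes. Of the 10 eIF3 genes with a promoter, 5 held these letters, and they are shown as members of the same complex. Their log2 fold changes in Ortho were -1.74 (Eif3g) to -1.07 (Eif3c). The eIF3 genes whose promoters lack the letters fell as well, at -1.54 for Eif3a, -1.70 for Eif3b, -1.17 for Eif3f, -1.33 for Eif3j1 and -1.16 for Eif3k. A link between the letters and the falls was not tested. Each line is 29 bases on the strand of the gene, with the motif in capitals.
Eif3c chr7:126566383-126566411 (minus strand): aaccttttcctCTTCCGGcgtcgtgcctg
Eif3d chr15:77970877-77970905 (minus strand): gctgtgacacaCTTCCGGttgtgtctcac
Eif3g chr9:20898617-20898645 (minus strand): cggccgcggcaCCGGAAGcctcttctact
Eif3l chr15:79075177-79075205 (plus strand): gctgggcgggaCTTCCGGtccggccaagc
Eif3m chr2:105017065-105017093 (minus strand): ctgtggctgacCCGGAAGcggttgtgcgt
The same letters lay in the promoters of 11 other factor genes, among them Eif2b4 and Eif4enif1, which fell furthest but for Eef1e1, and Eif5a2, which rose in Baso. These 3 were chosen after their values were seen.
Eif2b4 chr5:31193121-31193149 (minus strand): cccagtgcacgCCGGAAGttgtagtccgc
Eif4enif1 chr11:3203003-3203031 (plus strand): tccctgcccttCTTCCGGaggagcctcta
Eif5a2 chr3:28781230-28781258 (plus strand): cggggcctatcCCGGAAGtgtggtcgcgg
E-box letters (CACGTG), a motif of MYC and related factors, occurred in 13 of the 47 promoters (27.7%), against 12.1% of the tested genes, among them Eef2, Eif4a1, Eif4e, Eif4g1 and Eif5a. GATA letters (AGATAA, either strand) occurred in 1, that of Eif3c (2.13%), against 8.13% of the tested genes. CCAAT letters, on either strand, occurred in 15 (31.9%), against 43.3%. A match of letters is not a site, and no binding was measured in these files.

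Of the 11 cap-binding, scaffold and helicase genes (eIF4A, 4B, 4E, 4G and 4H), 10 fell and 1 rose in Baso compared with Pro. The shares of all genes there were 42.1% and 14.9%. In Ortho compared with Pro 9 fell and 1 rose, against 53.2% and 22.7% of all genes. Eif4e3 was the gene that rose. It encodes a cap-binding relative of eIF4E and lies at chr6:99625135-99666771. Eif4e3 had an FPKM of 7.75, 7.25 and 6.42 in Pro, 9.9996, 9.05 and 9.48 in Baso, 11.5, 11.6 and 11.3 in Poly, and 15.2, 13.1 and 14.8 in Ortho. Each stage was above the one before it without overlap. Eif4e3 was 2.01-fold higher in Ortho than in Pro by mean FPKM (log2 fold change 0.92, standard error 0.09, adjusted p = 1.93e-06), and higher in Baso (0.37, adjusted p = 0.00341) under 3 of the 4 scalings, with 0.21 and not past the threshold when each library was set to the same sum. The sums of B cell and macrophage markers also went up at each stage without overlap, and that of neutrophil markers did so from Pro to Poly. Their part in the rise of Eif4e3, and in its ratio to Eif4e below, was not tested. The overlapping gene model Gm20696 on the same strand was listed below 1 in every library.

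Eif4e, the main cap-binding protein, went the other way. Eif4e had an FPKM of 22.2, 22.4 and 26.7 in Pro, 12.9, 14.9 and 17.1 in Baso, 14.8, 15.96 and 12.7 in Poly, and 10.3, 9.01 and 9.91 in Ortho. Pro was highest, Ortho lowest, and Baso and Poly overlapped (log2 fold change -1.20, standard error 0.12, adjusted p = 2.7e-06). The Eif4e/Eif4e3 ratio was 2.87 to 4.15 in Pro, 1.29 to 1.81 in Baso, 1.13 to 1.38 in Poly, and 0.670 to 0.689 in Ortho (exact p = 0.00013, adjusted p = 0.000823), so Eif4e was above Eif4e3 in 9 of 9 libraries before Ortho and below it in 3 of 3 Ortho libraries. Eif4e and Eif4e2, a cap-binding relative linked to repression, did not change in ratio past the threshold (exact p = 0.359, adjusted p = 0.379), with values of 0.527 to 0.617 in Pro, 0.603 to 0.609 in Baso, 0.499 to 0.719 in Poly, and 0.461 to 0.561 in Ortho.

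The scaffold genes differed from each other. Eif4g1, the main scaffold, had an FPKM of 170.3, 124 and 142 in Pro, 73.1, 71.8 and 79.98 in Baso, 64.8, 64.5 and 72.4 in Poly, and 51.3, 44.8 and 55.5 in Ortho. Eif4g3, its close relative, had an FPKM of 24.8, 23.5 and 25.8 in Pro, 19.9, 20.2 and 22.3 in Baso, 23.6, 25.9 and 25.1 in Poly, and 23.9, 18.7 and 21.7 in Ortho. Eif4g1 fell 2.87-fold in Ortho (log2 fold change -1.50, standard error 0.12, adjusted p = 3.75e-07), whereas the Eif4g3 libraries of all stages lay within 18.7 to 25.9 and overlapped between Pro and Ortho. Eif4g3 differed by -0.20 in Ortho as deposited (adjusted p = 0.0605), a sign that turned under other scalings, to 0.27 without hemoglobin genes and 0.19 with median centring, and without Ortho library 1 it was -0.28 and past the threshold. The Eif4g1/Eif4g3 ratio was 5.26 to 6.86 in Pro, 3.55 to 3.68 in Baso, 2.49 to 2.88 in Poly, and 2.15 to 2.55 in Ortho (exact p = 0.00013, adjusted p = 0.000823). Eif4g2, which encodes a scaffold lacking the eIF4E site, had an FPKM of 203, 193 and 207 in Pro, 153, 131 and 153 in Baso, 193, 169 and 169 in Poly, and 135, 109 and 144 in Ortho. It was highest in Pro, and Poly lay above Baso and Ortho. The ratio of Eif4g1 to Eif4g2 was 0.642 to 0.839 in Pro, 0.479 to 0.548 in Baso, 0.336 to 0.429 in Poly, and 0.381 to 0.410 in Ortho (exact p = 0.000455, adjusted p = 0.00096).

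Eif4a1, the cap helicase, had an FPKM of 453, 374 and 372 in Pro, 179, 220.4 and 187 in Baso, 218, 209 and 188 in Poly, and 174, 153 and 145 in Ortho. Eif4a2, its paralogue, had an FPKM of 136, 116 and 132 in Pro, 72.8, 74.5 and 65.7 in Baso, 80.1, 78.9 and 71.9 in Poly, and 72.6, 64.2 and 55.9 in Ortho. Pro was separate for both, and the later stages overlapped in part, with log2 fold changes in Ortho of -1.33 and -0.99. Their ratio was 2.83 to 3.34 in Pro, 2.46 to 2.96 in Baso, 2.61 to 2.72 in Poly, and 2.39 to 2.60 in Ortho (exact p = 0.0227, adjusted p = 0.0254), and it stayed past the threshold in 12 of 16 alternatives, with an adjusted p of up to 0.0779. Other annotated genes share exon bases with both on the same strand, and fragments can also be shared by these close copies. Eif4a3, a relative that serves in the exon junction complex, fell too (log2 fold change -1.14, standard error 0.07, adjusted p = 1.06e-07).

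Eif4b and Eif4h each encode a cofactor of the helicase. Eif4b had an FPKM of 150.3, 130.3 and 151 in Pro, 60.8, 68.7 and 67.4 in Baso, 61.1, 66.8 and 64.5 in Poly, and 64.7, 64.2 and 60.9 in Ortho. Eif4h had an FPKM of 192, 177 and 192 in Pro, 115, 128 and 133 in Baso, 108, 115 and 112 in Poly, and 82.4, 79.96 and 80.8 in Ortho. The later stages of Eif4b overlapped, while the Eif4h libraries of each stage lay below those of the stage before, Poly only just below Baso. The log2 fold changes in Ortho compared with Pro were -1.17 and -1.20. The Eif4b/Eif4h ratio was low in Baso and Poly and alike in Pro and Ortho, at 0.735 to 0.788 in Pro, 0.508 to 0.539 in Baso, 0.565 to 0.582 in Poly, and 0.753 to 0.803 in Ortho (exact p = 0.00039, adjusted p = 0.00096).

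**Figure D3:**
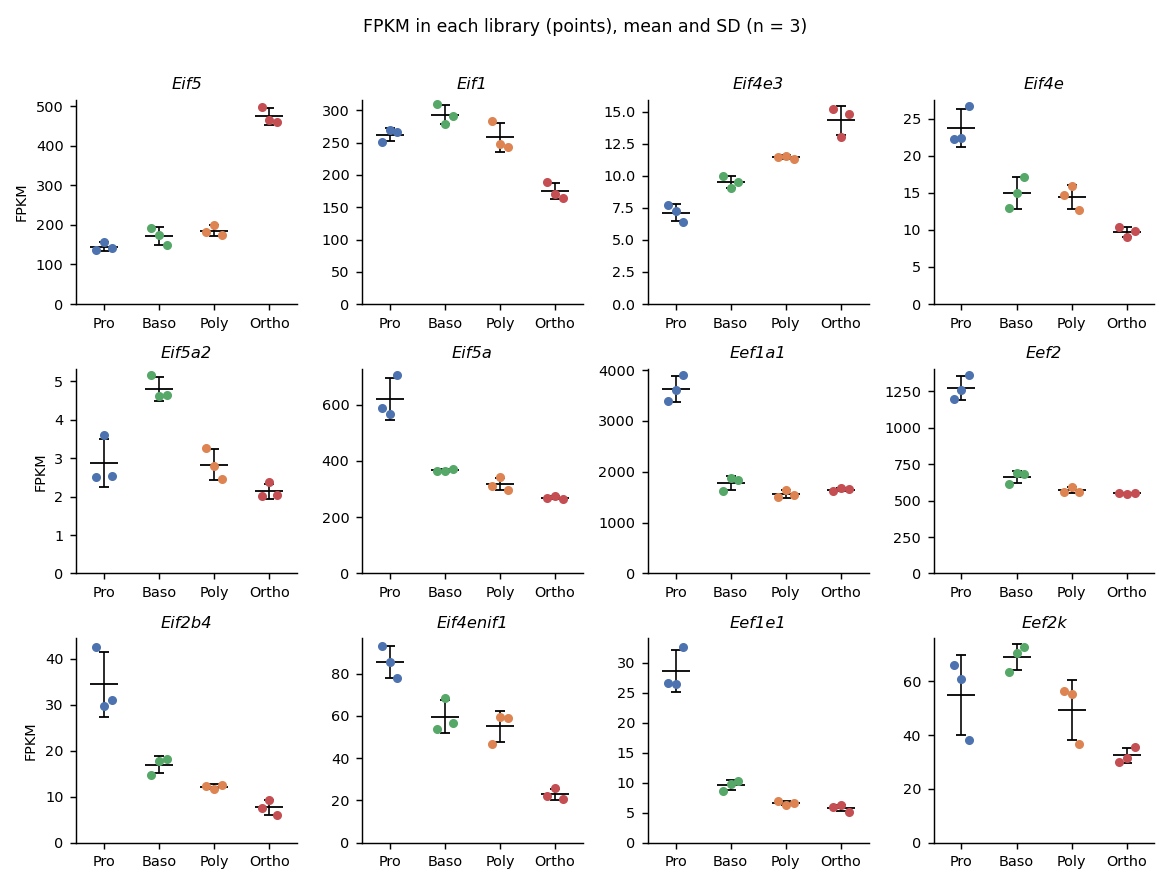
FPKM (vertical axes, from 0) of 12 translation factor genes in each library by stage, with the mean and SD of 3 libraries. Eif5 and Eif4e3 are highest in Ortho and Eif5a2 in Baso. Eef2k has its highest mean in Baso, where its libraries overlap those of Pro. The elongation factor genes Eef1a1 and Eef2 are about 2 times higher in Pro than later.

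Repressors of eIF4E fell too. As deposited, all 3 measured genes were lower in Baso and in Ortho than in Pro, against 42.1% and 53.2% of all genes. The fall of Eif4enif1 in Baso and that of Eif4ebp2 in Ortho depended on the scaling. Eif4ebp1, the binding protein released by mTORC1, had an FPKM of 36.2, 36.1 and 47.9 in Pro, 17.2, 16.5 and 15.3 in Baso, 13.7, 13.7 and 15.9 in Poly, and 16.8, 14.5 and 17.8 in Ortho. The Pro libraries stood alone and the 9 later libraries lay between 13.7 and 17.8 (log2 fold change -1.23, standard error 0.12, adjusted p = 2.22e-06). Eif4ebp2 had an FPKM of 48.6, 49.1 and 53.7 in Pro, 32.6, 34.6 and 34.3 in Baso, 34.1, 36.7 and 36.1 in Poly, and 38.8, 35.8 and 39.3 in Ortho. Pro was again highest, but the difference was smaller (-0.40, adjusted p = 0.000215) and its sign turned with hemoglobin genes left out (0.08). The ratio of Eif4ebp1 to Eif4ebp2 was 0.735 to 0.891 in Pro, 0.447 to 0.528 in Baso, 0.373 to 0.441 in Poly, and 0.405 to 0.454 in Ortho (exact p = 0.0013, adjusted p = 0.0019).

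Set against its binding proteins, Eif4e gave different pictures. The Eif4e/Eif4ebp1 ratio was 0.557 to 0.620 in Pro, 0.748 to 1.12 in Baso, 0.801 to 1.16 in Poly, and 0.556 to 0.621 in Ortho (exact p = 0.0105, adjusted p = 0.0125), higher in Baso and Poly than at either end. Between Eif4e and Eif4ebp2 the ratio was 0.456 to 0.496 in Pro, 0.395 to 0.499 in Baso, 0.353 to 0.435 in Poly, and 0.252 to 0.266 in Ortho (exact p = 0.00558, adjusted p = 0.00758), lowest in Ortho without overlap.

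Eif4enif1 encodes 4E-T, which carries eIF4E into the nucleus and to sites of mRNA storage, and lies at chr11:3202392-3244588. Eif4enif1 had an FPKM of 93.01, 85.5 and 77.8 in Pro, 53.98, 68.6 and 56.7 in Baso, 46.5, 59.5 and 59.2 in Poly, and 22.1, 25.8 and 20.7 in Ortho. The Ortho libraries lay well below all others, and Baso and Poly overlapped. Most of its fall came at the last step (Ortho against Poly log2 fold change -1.23, standard error 0.13, adjusted p = 1.64e-05), where it was the only factor gene to fall at least 2-fold, and it was 3.73-fold lower in Ortho than in Pro (log2 fold change -1.86).

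eIF5A, which carries hypusine and relieves stalled ribosomes, is encoded by Eif5a and by the scarce Eif5a2. Eif5a had an FPKM of 587, 567 and 705 in Pro, 363, 365 and 372 in Baso, 313, 342 and 299 in Poly, and 269, 275 and 265 in Ortho. Its libraries came down stage by stage without overlap (log2 fold change -1.19, standard error 0.09, adjusted p = 2.35e-07). Eif5a2 had an FPKM of 2.51, 3.59 and 2.53 in Pro, 5.16, 4.61 and 4.65 in Baso, 3.26, 2.79 and 2.46 in Poly, and 2.02, 2.37 and 2.04 in Ortho. All Baso libraries lay above those of the other stages, with a rise against Pro (log2 fold change 0.59, standard error 0.13, adjusted p = 0.0021) and a fall to Poly (log2 fold change -0.60, standard error 0.13, adjusted p = 0.0147) that missed the threshold without Poly library 3 (-0.53). The ratio of Eif5a to Eif5a2 was 158 to 279 in Pro, 70.3 to 79.9 in Baso, 95.9 to 122 in Poly, and 116 to 134 in Ortho (exact p = 0.000455, adjusted p = 0.00096).

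Eif6, which keeps the subunits apart and acts in ribosome assembly, had an FPKM of 79.9, 51.1 and 56.7 in Pro, 31.4, 35.2 and 33.6 in Baso, 34.3, 33.3 and 30.8 in Poly, and 25.6, 27.4 and 27.8 in Ortho. Pro libraries were higher and more spread, Baso and Poly overlapped, and Ortho was lowest (log2 fold change -1.16, standard error 0.13, adjusted p = 9.62e-06).

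All 5 measured elongation factor genes fell in Ortho and 4 of them in Baso, compared with Pro, against 53.2% and 42.1% of all genes. The fall of Eef1d in Ortho missed the threshold with hemoglobin genes left out. Eef1a1, which encodes the carrier of aminoacyl-tRNA, lies at chr9:78478449-78489151. Eef1a1 had an FPKM of 3389, 3599.5 and 3898 in Pro, 1615, 1868 and 1841 in Baso, 1494, 1649 and 1539 in Poly, and 1616, 1678 and 1651 in Ortho. Pro libraries were about 2 times the later ones, which overlapped from Baso to Ortho. It held rank 6 among tested genes by mean FPKM in Pro and ranks 13, 15 and 13 in Baso, Poly and Ortho, and made up 28.6% to 32.6% of the summed FPKM of the translation factors at each stage. Eef1a1 fell 2.20-fold in Ortho (log2 fold change -1.14, standard error 0.09, adjusted p = 4.45e-07). Processed copies of this gene are spread over the genome, so its absolute level is uncertain.

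Eef2, the translocase, had an FPKM of 1197, 1262 and 1363 in Pro, 618, 688 and 682 in Baso, 559, 594 and 557 in Poly, and 550.4, 548 and 554 in Ortho. The pattern was the same as for Eef1a1, with Pro far above the rest, although its Ortho libraries lay below those of Poly (log2 fold change -1.21, standard error 0.07, adjusted p = 7.33e-08). Their ratio stayed within a small range, at 2.83 to 2.86 in Pro, 2.61 to 2.72 in Baso, 2.67 to 2.78 in Poly, and 2.94 to 3.06 in Ortho, and yet differed between stages (exact p = 0.000195, adjusted p = 0.000925), with the lowest values in Baso and the highest in Ortho.

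Subunits of the exchange factor eEF1B did not move alike. Eef1g had an FPKM of 502, 448 and 545 in Pro, 168, 209.9 and 182 in Baso, 150.3, 159 and 156 in Poly, and 148, 154 and 151 in Ortho. Eef1b2 had an FPKM of 347, 278 and 365 in Pro, 101, 139.5 and 117 in Baso, 109, 128 and 102 in Poly, and 106, 134 and 97.3 in Ortho. Both fell in Baso by more than 2-fold, and neither differed between Poly and Ortho past the threshold (-1.41 and -1.46, log2 fold changes in Baso compared with Pro). Eef1d had an FPKM of 178, 105 and 129 in Pro, 111, 135 and 112 in Baso, 136, 109 and 112 in Poly, and 79.99, 73.2 and 72.7 in Ortho. Eef1d libraries of Pro, Baso and Poly overlapped, and the Ortho libraries lay below all others (Ortho against Poly log2 fold change -0.65, standard error 0.16, adjusted p = 0.0106). Against Pro, the log2 fold change of Eef1d in Ortho was -0.82 as deposited (adjusted p = 0.00069), -0.34 with hemoglobin genes left out (adjusted p = 0.0865) and -0.43 with median centring (adjusted p = 0.0309). The Eef1b2/Eef1d ratio was 1.96 to 2.84 in Pro, 0.909 to 1.05 in Baso, 0.799 to 1.17 in Poly, and 1.33 to 1.83 in Ortho (exact p = 0.000519, adjusted p = 0.000987). In the annotation Eef1d shares exon bases with Naprt on the same strand. Eef1b2 shares them with Gm27390 on the same strand and Ndufs1 on the other. Fragments of the shared bases could belong to either gene.

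**Figure D4:**
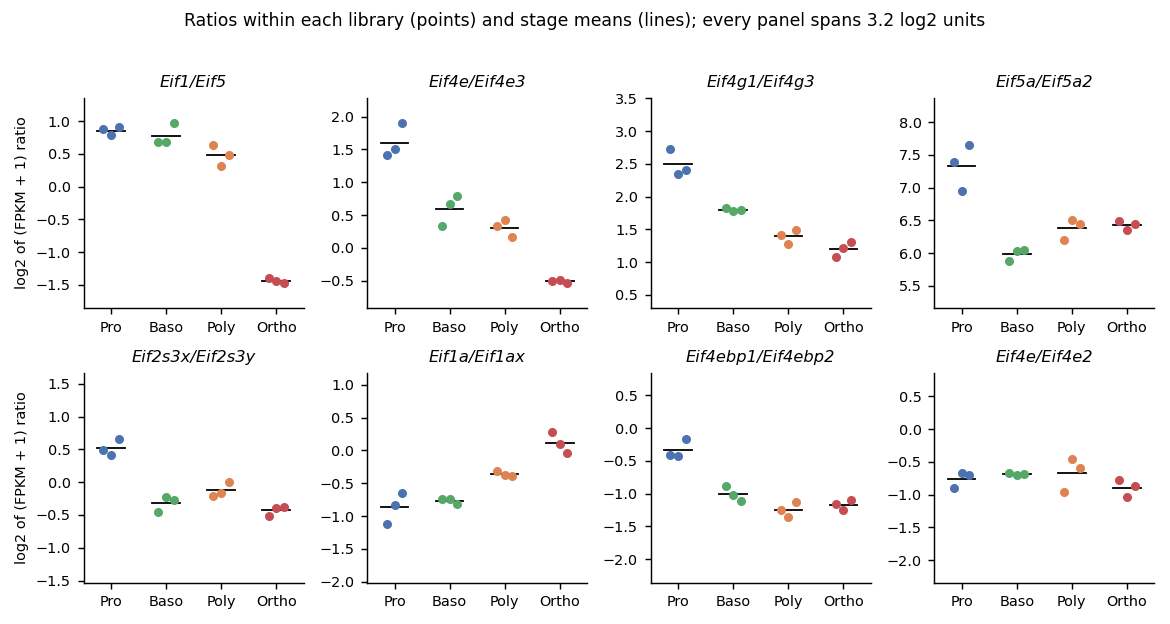
Log2 ratio of (FPKM + 1) for 8 pairs of genes in each library (points) by stage, with stage means as lines and the same span of 3.2 log2 units in every panel. Eif1/Eif5 and Eif4e/Eif4e3 drop below 0 in the Ortho libraries, and Eif1a/Eif1ax is highest in Ortho. Eif4e/Eif4e2 overlaps between stages except that the Ortho libraries lie below those of Baso.

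Eef1e1 (also known as AIMP3) is part of the aminoacyl-tRNA synthetase complex and carries an elongation factor name. It lies at chr13:38644207-38659058. Eef1e1 had an FPKM of 26.6, 26.5 and 32.7 in Pro, 8.68, 9.77 and 10.3 in Baso, 6.92, 6.26 and 6.65 in Poly, and 5.96, 6.23 and 5.15 in Ortho. Pro libraries stood far above the rest, and no Baso library overlapped a later one. It showed the lowest log2 fold change of all 60 genes in Baso, Poly and Ortho compared with Pro, and was 4.94-fold lower in Ortho (log2 fold change -2.12, standard error 0.11, adjusted p = 1.91e-08). The step from Baso to Poly passed the test as well (-0.48, adjusted p = 0.0177), but not without Baso library 2 or 3 or Poly library 2 or 3 (-0.43 to -0.48).

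Eef2k encodes the kinase that inhibits eEF2. Eef2k had an FPKM of 65.9, 60.7 and 38.1 in Pro, 63.4, 70.4 and 72.7 in Baso, 56.5, 55.2 and 36.5 in Poly, and 30.1, 31.5 and 35.6 in Ortho. Pro and Poly libraries were widely spread, each with 1 low library, Baso was high and Ortho low. Its fall in Ortho compared with Pro (log2 fold change -0.71, standard error 0.20, adjusted p = 0.00719) was not past the threshold when hemoglobin genes were left out (-0.23) or with median centring (-0.31). The ratio of Eef2 to Eef2k was 18.2 to 35.8 in Pro, 9.39 to 9.77 in Baso, 9.88 to 15.3 in Poly, and 15.5 to 18.3 in Ortho (exact p = 6.49e-05, adjusted p = 0.000823), lowest in Baso. The methyltransferase genes Eef2kmt, Eef1akmt1, Eef1akmt2 and Eef1akmt4 all had a mean FPKM under 12 at each stage. As deposited, 3 of the 4 fell in Ortho compared with Pro, against 53.2% of all genes. Of these, Eef1akmt1 passed the threshold under all 4 scalings. Eef1akmt2 went from -0.71 to -0.29 with hemoglobin genes left out (adjusted p = 0.138) and -0.32 with median centring (adjusted p = 0.110), and Eef2kmt from -0.59 to -0.17 (adjusted p = 0.274) and -0.20 (adjusted p = 0.211). Eef1akmt4 did not pass (-0.25, adjusted p = 0.222, and 0.16 with hemoglobin genes left out).

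Other genes of the pathway were taken from 6 lists. Of the 50 tested, 33 were lower and 2 higher in Baso than in Pro, against 42.1% and 14.9% of all genes, and 41 were lower and 3 higher in Ortho, against 53.2% and 22.7%, the shares against which the counts of each list in Ortho are also to be read. The 50 genes had median log2 fold changes of -0.60 and -0.92, where all genes had -0.23 and -0.42. Of the termination and recycling genes, 7 of 9 were lower and 1 higher in Ortho. Etf1, the release factor eRF1, was 3.29-fold lower in Ortho (-1.67), and Abce1, the recycling ATPase, 3.03-fold lower (-1.55). Gspt2, a scarce copy of eRF3, was the gene that was higher (0.58), at a mean FPKM of 0.948 in Pro and 1.92 in Ortho.

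Poly(A) binding and helper genes had 7 of 10 lower and 1 higher in Ortho. Pabpc1, the poly(A)-binding protein that joins the mRNA tail to eIF4G, had an FPKM of 836, 806 and 910.4 in Pro, 975, 1070.2 and 1031 in Baso, 912, 1094 and 1002 in Poly, and 2107, 2367 and 1996 in Ortho. The Ortho libraries were separate and about 2 times the others, with a rise against Pro (log2 fold change 1.34, standard error 0.10, adjusted p = 2.1e-07). B cell and macrophage marker sums were highest in Ortho as well, and their part in this rise was not tested. Pabpc4, the paralogue of Pabpc1, fell (-1.44). Larp1, a repressor of mRNAs for the translation machinery, fell as well (-1.05).

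Ppp1r15a (GADD34) and Ppp1r15b (CReP) encode the subunits that direct a phosphatase to eIF2 and so reverse the action of its kinases. Ppp1r15a had an FPKM of 98.5, 112 and 66.3 in Pro, 309, 211 and 203 in Baso, 203, 170.2 and 248 in Poly, and 453, 409 and 409 in Ortho. Each later library was above the highest Pro library, and the Ortho libraries were highest. B cell and macrophage marker sums were also highest in Ortho, and their part in the rise of Ppp1r15a was not tested. Ppp1r15a rose 4.59-fold in Ortho (log2 fold change 2.22, standard error 0.21, adjusted p = 1.81e-06), while Ppp1r15b fell 2.13-fold (-1.07). In the list of mTORC1 and kinase genes, 10 of 11 were lower in Ortho and none higher. The falls ran from -1.48 for Tsc2, which holds the pathway off, to -0.29 for Mknk1, a kinase of eIF4E. The sign of Mknk1 turned to 0.19 and past the threshold without hemoglobin genes in the scaling. Mtor had a log2 fold change of -0.44, which was 0.01 with hemoglobin genes left out.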

How the data were processed

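RNA sequencing libraries of sorted wild type mouse erythroblasts were analysed as FPKM, which the authors computed and deposited in 1 table of 29838 genes. Per the labels and the study's methods, reads were trimmed with Cutadapt and Trimmomatic, aligned to mm10 with HISAT2 and processed with SAMtools and featureCounts. The tool versions, the tool that computed FPKM, the annotation, the strand setting and the handling of fragments with several matches are not given in the sources used here. The labels and the methods name different library kits. The authors compared stages with DESeq2 on counts, which cannot be run on FPKM.

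The 12994 genes that reached an FPKM of 1 in 3 or more of the 12 libraries entered a limma model (limma 3.58.1, R 4.3.3) of log2(FPKM + 1) with all 4 stages, a variance trend and Benjamini-Hochberg adjustment over all genes tested. The pseudocount understates the change of low genes. Later stages were compared with Pro, Poly with Baso and Ortho with Poly, so comparisons share libraries. An exact test of a single gene between 3 and 3 libraries cannot go below a p of 0.1, and was not used. Ratios were tested by an exact permutation test in Python 3.11.15. Both tests were checked on simulated data.

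Libraries with the same replicate number deviated together in Baso, Poly and Ortho (r = 0.156 to 0.319 for each of the 9 pairs) but less with Pro (r = 0.00524 to 0.0968), so a replicate block was fitted as an alternative. Alternatives covered the pseudocount, the filter, 3 scalings, the variance model, the samples in the model, a 2-fold limit and leaving out each library. The 3 scalings were the same FPKM sum without 12 hemoglobin genes, the same sum over all genes, and centring on the median log2 value. The depth of the libraries is unknown, and 1928 positive values under 0.001 show that FPKM here does not step by whole reads. Values in every library are given for the 5 genes of highest mean, the 3 highest and lowest fold changes past the threshold in each comparison, the genes of the ratio pairs and some named regulators, and other genes named were chosen after their values were seen. The members and all gene lists were chosen with earlier results of these data known. Sequences are from RefSeq (GRCm38.p6 promoters) and GENCODE M21. Eef1a2, Eif4e1b and Eef1aknmt were not analysed here. 1 gene of the erythroid marker list is not reported here.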

Additional observations from a re-analysis of the deposited data

How the results depend on the processing

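The counts of genes lower in Baso, Poly or Ortho than in Pro stayed within 1.5 times of 52, 51 and 55 under every alternative but the 2-fold limit, which left 16 in Baso and 25 in Poly. Leaving out each library gave 51 to 53 lower and 2 to 3 higher in Baso, 50 to 52 lower and 2 higher in Poly, and 54 to 56 lower and 2 higher in Ortho. Genes higher in Baso numbered 5 with hemoglobin genes left out or with median centring, 1 with the same sum or with a mean FPKM of at least 5, and 0 with the 2-fold limit. Genes higher in Poly numbered 4, 4, 1 and 0 with hemoglobin genes left out, median centring, the same sum and the 2-fold limit, and 1 was higher in Ortho with the 2-fold limit. Of the calls among all genes in Ortho, 29.9% were higher, 49.7% without hemoglobin genes in the scaling and 18.9% with the same sum.

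The step from Baso to Poly was the least stable. Leaving out each library gave 0 to 13 lower and 0 to 1 higher, and the same sum gave 5 lower. With the replicate block over all stages 9 were lower and 1 higher, and with the block in Baso, Poly and Ortho 20 and 3. The 2-fold limit left 0 lower, 2 were higher with hemoglobin genes left out, and 1 was higher with only both stages in the model. From Poly to Ortho, 13 were lower with hemoglobin genes left out, 12 with median centring, 39 with the same sum and 1 with the 2-fold limit, where 1 was higher, as with the same sum. Leaving out each library gave 15 to 23 lower and 1 to 2 higher. The replicate block moved no other count by over 1.5 times. Of the ratios, 16 to 18 passed the threshold with each library left out.

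Of 70 fold changes named, 10 changed sign in at least 1 alternative. With hemoglobin genes left out, Ortho compared with Pro gave 0.21 for Dohh, 0.16 for Eef1akmt4, 0.11 for Eif1a, 0.022 for Eif2s3y, 0.081 for Eif4ebp2, 0.27 for Eif4g3, 0.19 for Mknk1, 0.0061 for Mtor and 0.24 for Mtrf1. With median centring it gave 0.13 for Dohh, 0.15 for Eef1akmt4, 0.053 for Eif1a, 0.19 for Eif4g3, 0.11 for Mknk1 and 0.32 for Mtrf1. With the same sum, Baso compared with Pro gave -0.020 for Eif1, and for Mtrf1 leaving out each library gave -0.20 (Ortho library 3) to 0.089 (Ortho library 2). The cause of these changes was not tested beyond the scaling itself, which shifts all genes of a library together. FPKM carries no counts, so counting error could not be set apart from the spread between libraries.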

Other observations

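Enzymes that modify the factors were mostly lower after Pro as well. Of the 9 hypusine and diphthamide genes tested, which make the modified residues of eIF5A and eEF2, 8 were lower in Baso and 8 in Ortho than in Pro, with median log2 fold changes of -0.82 and -0.90 (limma, adjusted p under 0.05), where 42.1% and 53.2% of all genes were lower and the medians of all genes were -0.23 and -0.42. Dohh, the last enzyme of hypusine synthesis, fell in Baso and rose again from Poly to Ortho (log2 fold change 0.73, adjusted p = 0.00206), and its difference between Ortho and Pro did not pass the threshold (-0.27, adjusted p = 0.103).

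Translation factors of mitochondria had 7 of 9 genes lower in Baso and 8 in Ortho than in Pro, against the same 42.1% and 53.2% of all genes, with medians of -1.02 and -1.21, beside -0.83 and -1.17 for the cytosolic factors. Gfm1, an elongation factor of mitochondria, was 3.16-fold lower in Ortho (-1.51), and Tufm, the relative of eEF1A, 2.42-fold lower (-1.21). Mtrf1 did not pass the test (-0.07, adjusted p = 0.655).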
